A study of Schizosaccharomyces pombe with 24 samples.

Results

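Small RNAs of 20 to 30 nucleotides were compared in fission yeast (Schizosaccharomyces pombe) between 4 h and 2 h after cells had been moved to medium without nitrogen. The comparison took the libraries titled 4 h and 2 h of the strains wt, clr4D and dcr1D, which made 6 of the 24 libraries of the series, 3 at each time, paired by strain. All strains were 975 h+, the mating type of P cells. The wt strain carried no deletion, and the others were labelled clr4D::NatMX6 and dcr1D::NatMX6, where D stands for a deletion and NatMX6 for the drug-resistance cassette that replaces the gene. Cells of every strain were grown at 32 °C in Edinburgh minimal medium with adenine, histidine, leucine, lysine and uracil, washed, and kept in the same medium lacking nitrogen for 4 h or 2 h. The strain labelled ago1D was left out because its early time labels were in doubt. Each strain had 1 library per time, so the strains served as the replicates of a time, and the labels do not say whether the libraries came from separate cultures.

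Fission yeast that runs out of nitrogen stops growing, arrests in G1 and, if a mating partner is present, mates and goes through meiosis; without a partner it becomes quiescent. The transcription factor Ste11 switches on mating genes, the Sty1 stress kinase and its factor Atf1 switch on a core set of stress genes, and TOR kinase ties ribosome production to the nitrogen supply. Dcr1 (Dicer) cuts double-stranded RNA into small interfering RNAs, Ago1 (Argonaute) carries them, and Clr4 methylates histone H3 to form heterochromatin. Reads of this length that fall in genes can be small interfering RNAs or pieces of longer transcripts, and the counts do not separate these. Fewer cells making an RNA and less RNA per cell cannot be told apart either.

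Gene counts per library ran from 358215 to 479759 at 4 h and from 207035 to 276033 at 2 h, so every 4 h library was deeper than every 2 h library. Genes took 4.86% ± 0.783 of the reads in the 4 h files and 2.56% ± 0.569 in the 2 h files (SD, n = 3 each); most of the rest was set aside by the counting program for low mapping quality, 93.6% ± 1.03 at 4 h and 96.6% ± 0.585 at 2 h. The counts of the targeted genes went against the labels. clr4 had 174 normalised CPM (counts scaled to the TMM-adjusted library size) in the 4 h library labelled clr4D and 67 in that of wt, and 185 and 65.4 at 2 h. dcr1 had 97.9 in the 4 h library labelled dcr1D and 75.4 in that of wt, and 109 and 65.4 at 2 h. Neither gene was lower in the strain labelled as lacking it, so these strains are called by their labels throughout. In their profiles across genes all 6 libraries were closest to the other libraries of their own labelled time (Pearson's r across genes from 0.301 to 0.461, against 0.0733 to 0.355 for the next time); genes are not independent replicates.

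Between the times, 14 of 24 core stress genes and 5 of 10 histone genes were lower at 4 h, and 5 of 20 genes of the mating pathway were higher. Of 4548 genes tested with the quasi-likelihood test of edgeR (Benjamini-Hochberg adjusted p below 0.05), 199 passed, which is 4.38% of those tested. Of these, 63 were higher at 4 h (1.39%) and 136 were lower (2.99%). In 197 of the 199 the sign was the same in all 3 strains, and in 192 the 3 libraries at 4 h did not overlap the 3 at 2 h. Over all genes tested, 10.9% did not overlap and were higher at 4 h, and 11.9% did not overlap and were lower. The smallest change that passed was 0.72 on the log2 scale.

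The number of calls changed with the libraries fitted. With the 10 h and 24 h libraries left out, an alternative added after the data were seen, 523 genes passed, and with the 6 compared libraries alone 516. Leaving out the pair of wt, clr4D or dcr1D left 62, 61 or 82, and adding all 6 ago1D libraries left 24. With the 4 h libraries thinned at random to the depth of the 2 h library of their strain, 173 passed. Scaling by total counts moved the median log2 change of all genes to -0.11, against 0.01 with the main scaling, and gave 45 higher and 172 lower. No gene that passed changed sign under any of the 14 settings run.

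**Figure D1:**
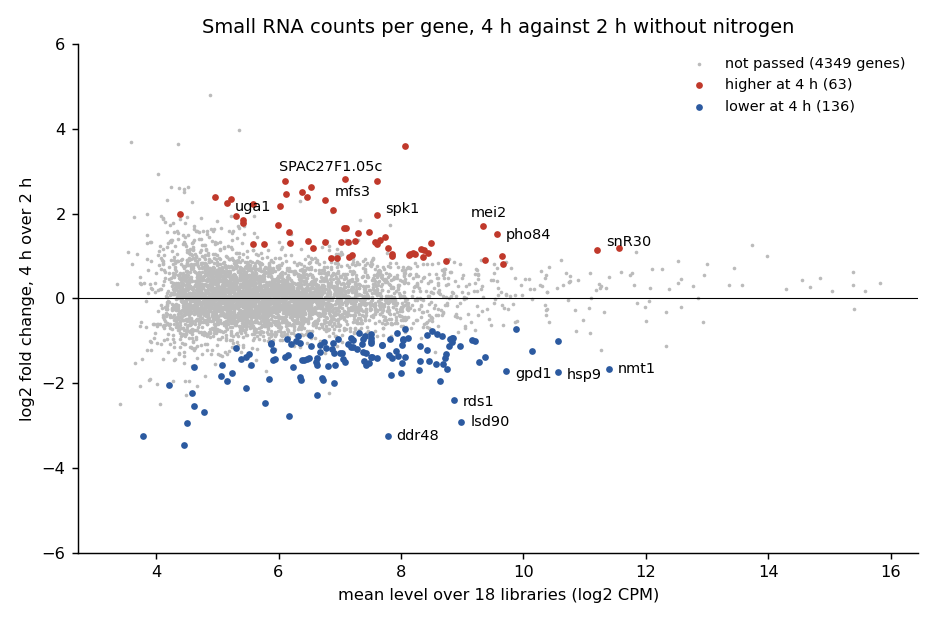
Each point is a gene, with its mean level over the 18 fitted libraries (log2 CPM) on the horizontal axis and its log2 fold change at 4 h over 2 h on the vertical axis; red points are the 63 genes that passed and were higher at 4 h, blue points the 136 that were lower. The falls include well-measured genes such as lsd90 (-2.91), gpd1 (-1.72) and nmt1 (-1.66), and the rises include mei2 (1.71) and spk1 (1.96).

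Most falls followed a peak at 2 h. Of the 136 genes that fell, 109 had their highest mean level of all 6 times at 2 h and 20 at 1 h, and 78 had their lowest at 0 h. The 63 rises were less uniform: 18 had their highest mean at 0 h, 4 at 1 h, 11 at 4 h, 14 at 10 h and 16 at 24 h, and 27 had their lowest mean at 2 h. These counts describe the genes that passed, and the 2 h libraries enter both the choice and the count.

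The core stress genes were the list with the most falls. Of 24 tested, 14 fell and none rose, where 2.99% of all genes fell; all 24 had a negative log2 change, with a median of -1.12 against 0.01 over all genes tested. Without the wt or clr4D pair 9 of the 24 fell, without the dcr1D pair 12, and with all 6 ago1D libraries added 2, with medians from -1.27 to -0.87. gpd1, a glycerol-3-phosphate dehydrogenase that makes glycerol under osmotic stress, had 558, 733 and 514 normalised CPM at 4 h in wt, clr4D and dcr1D, against 2206, 2157 and 1575 at 2 h. Every 4 h library was below every 2 h library, and the log2 change was -1.72 (SE 0.21, edgeR adjusted p = 2.23e-05). gpx1, the glutathione peroxidase that removes hydrogen peroxide, had 220.5, 222 and 189.7 at 4 h, against 760.0, 563 and 518 at 2 h, with no overlap and a log2 change of -1.54 (SE 0.20, edgeR adjusted p = 6.99e-05).

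Other antioxidant and trehalose genes of the list moved the same way. The catalase gene ctt1 fell by 1.76 on the log2 scale (SE 0.27, edgeR adjusted p = 0.000247), and tpx1, a thioredoxin peroxidase, fell by 1.12 (SE 0.23, edgeR adjusted p = 0.00513). ntp1, the neutral trehalase that breaks down trehalose, had 198, 241 and 237 normalised CPM at 4 h in wt, clr4D and dcr1D, against 829, 702 and 644 at 2 h (log2 change -1.70, SE 0.23, edgeR adjusted p = 8.6e-05). tps1, which makes trehalose phosphate, averaged 297 ± 49.9 at 4 h and 937 ± 159 at 2 h (SD, n = 3 each; log2 change -1.67, edgeR adjusted p = 0.000189). So the genes for making and for breaking down trehalose were both lower at 4 h, with the libraries of the times apart for each.

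atf1, the transcription factor behind many of these genes, averaged 157 ± 20.1 normalised CPM at 4 h and 337 ± 68.1 at 2 h (SD, n = 3 each; log2 change -1.09, SE 0.22, edgeR adjusted p = 0.00366). The atf1 call was lost without the wt or the clr4D pair and with the ago1D libraries added. hsp9, a small heat-shock protein of the plasma membrane, had 834, 877 and 1402 at 4 h in wt, clr4D and dcr1D, against 3612, 3099 and 3245 at 2 h (log2 change -1.74, SE 0.27, edgeR adjusted p = 0.000307). The fall of hsp9 was widest in wt and clr4D, but no library at 4 h reached the level of any at 2 h. Of 19 heat-shock chaperone genes tested, 2 fell (10.5%) and none rose, where 2.99% of all genes fell. The median was -0.03, with 9 positive. The 2 were hsp104, a disaggregase, with a log2 change of -1.33 (edgeR adjusted p = 0.00428), and psi1, a DnaJ co-chaperone, with -1.20 (edgeR adjusted p = 0.0135). Neither passed without the wt or the clr4D pair, and hsp104 also stands in the core stress list. mas5, a DnaJ co-chaperone, had 109, 74.9 and 73.4 normalised CPM at 4 h in wt, clr4D and dcr1D, against 24.5, 30.9 and 59.5 at 2 h; the groups did not overlap, but it did not pass (log2 change 1.13, SE 0.33, edgeR adjusted p = 0.0554), and passed in 5 of the 14 settings.

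The steepest falls lay among genes at their peak at 2 h. lsd90, annotated only as protein Lsd90, had 243, 278 and 198 normalised CPM at 4 h in wt, clr4D and dcr1D, against 2337, 1910.2 and 1148 at 2 h. Its log2 change was -2.91 (SE 0.32, edgeR adjusted p = 1.04e-05). The mean of lsd90 over the 3 strains was 57.5 at 0 h, 307 at 1 h, 1798 at 2 h, 239.6 at 4 h, 309 at 10 h and 378 at 24 h, so it left the peak at 4 h but did not return to the starting level. ddr48, annotated as protein Ddr48, had 78.1, 126 and 44.9 at 4 h, against 993, 891 and 466 at 2 h (log2 change -3.24, SE 0.34, edgeR adjusted p = 1.04e-05). Both genes passed in all 14 settings run, as did gpd1.

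rds1, a stress-responsive gene of the core list, had 301, 286 and 259 normalised CPM at 4 h in wt, clr4D and dcr1D, against 2051, 1548 and 903 at 2 h (log2 change -2.40, SE 0.29, edgeR adjusted p = 2.3e-05). Metabolic genes were among the 10 largest falls. SPAPB1A11.03, annotated as an L-lactate dehydrogenase, had 2, 6 and 1 counts at 4 h, against 46, 18 and 9 at 2 h. SPBC24C6.09c, a phosphoketolase family gene, fell to 37.7 ± 15.1 normalised CPM at 4 h, against 257 ± 97.2 at 2 h (SD, n = 3 each; log2 change -2.77, edgeR adjusted p = 1.94e-05). ssd2, a succinate-semialdehyde dehydrogenase of the gamma-aminobutyrate (GABA) route, had 3, 5 and 7 counts at 4 h, against 39, 17 and 6 at 2 h. In dcr1D, where the counts were close, the normalised CPM of ssd2 was 14.3 at 4 h and 21 at 2 h. ssd2 passed in 7 of the 11 settings that tested it, and SPAPB1A11.03 in 9 of 12. Neither passed by DESeq2, without the wt pair or with the ago1D libraries added, and ssd2 was also lost without the clr4D pair.

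Also among the 10 largest falls was SPBC725.03, a pyridoxamine phosphate oxidase, with a log2 change of -2.46 (SE 0.34, edgeR adjusted p = 8.6e-05). The uncharacterised gene SPAP14E8.05c had 1, 0 and 4 counts at 4 h, against 11, 5 and 10 at 2 h. The non-coding RNA SPNCRNA.1591 had 2, 0 and 0 counts at 4 h, against 6, 5 and 3 at 2 h. SPAP14E8.05c and SPNCRNA.1591 passed, but their fold changes rest on few reads. SPNCRNA.1591 passed in 3 of the 9 settings that tested it, but not by DESeq2 or in any fit that left out a pair. SPAP14E8.05c passed in 8 of 11, but not by DESeq2, without the wt pair or with the ago1D libraries added.

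**Figure D2:**
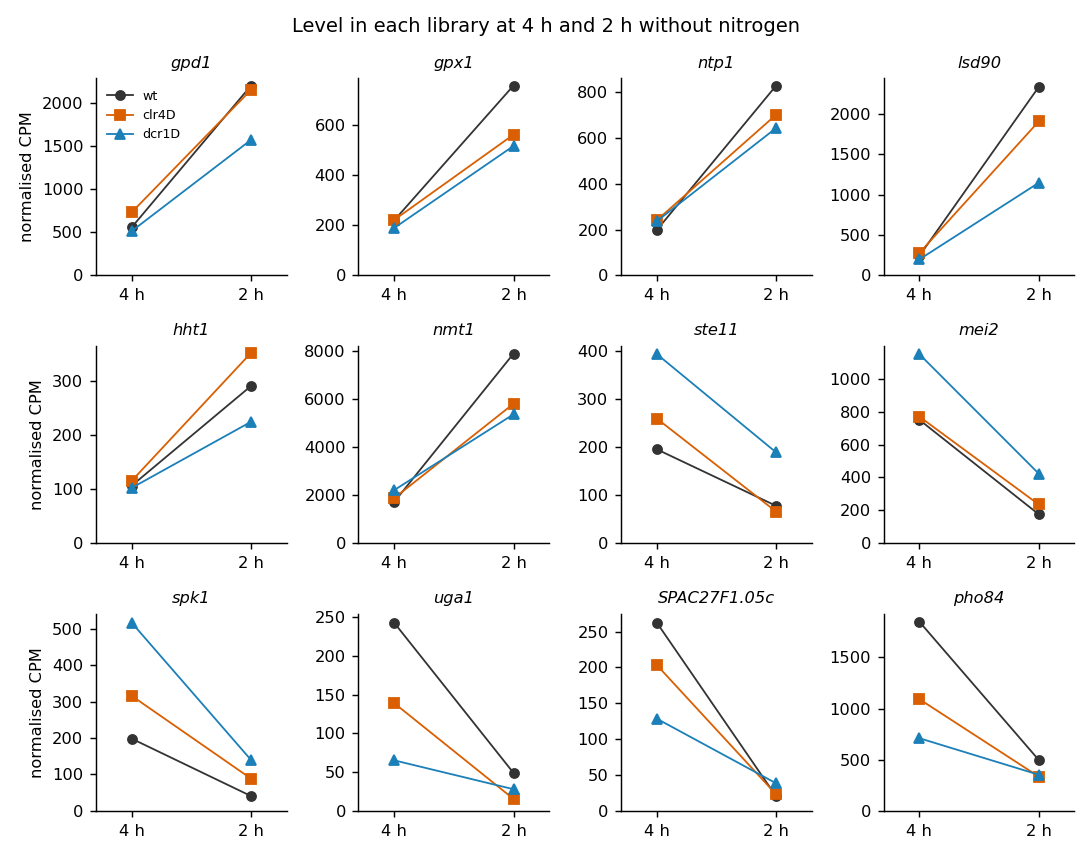
Normalised CPM of 12 genes in each library, 4 h left and 2 h right of each panel, with a line per strain (black circles wt, orange squares clr4D, blue triangles dcr1D). For gpd1, gpx1, ntp1, lsd90, hht1 and nmt1 all 3 lines end lower at 4 h, and for ste11, mei2, spk1, uga1, SPAC27F1.05c and pho84 all 3 end higher at 4 h.

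Among genes chosen after their values were seen, the eisosome genes pil1, fhn1 and eis1, which build furrows of the plasma membrane, fell by 1.25, 1.24 and 1.01 on the log2 scale (edgeR adjusted p = 0.00248, 0.00131 and 0.0487). The thiamine-regulated gene nmt1 was also chosen so: it had 1719, 1875 and 2209 normalised CPM at 4 h in wt, clr4D and dcr1D, against 7894, 5808 and 5366 at 2 h (log2 change -1.66, SE 0.28, edgeR adjusted p = 0.000765). maf1, which inhibits RNA polymerase III, fell by 1.57 (SE 0.40, edgeR adjusted p = 0.0239), on 5, 7 and 7 counts at 4 h and 10, 13 and 14 at 2 h.

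Of 10 histone genes tested, with a median log2 change of -0.92, none rose and 5 fell (50%), where 2.99% of all genes fell. Histone proteins package DNA, and the paired H3 and H4 genes of fission yeast encode the same or nearly the same proteins, so reads from their shared stretches cannot be placed and the counts come from what differs. hht1 (H3) had 106, 115 and 102 normalised CPM at 4 h in wt, clr4D and dcr1D, against 290.1, 351 and 224 at 2 h (log2 change -1.41, SE 0.24, edgeR adjusted p = 0.000775). Its neighbour hhf1 (H4) averaged 145 ± 25.3 at 4 h and 374 ± 42.3 at 2 h (SD, n = 3 each; log2 change -1.38, edgeR adjusted p = 0.00107), and hhf3 averaged 95.2 ± 29.2 at 4 h and 283 ± 121 at 2 h (log2 change -1.51, edgeR adjusted p = 0.000407).

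The second H3 and H4 pair, hht2 and hhf2, had log2 changes of 0.04 and 0.09 (edgeR adjusted p = 0.972 and 0.933), and whether they differed from the first pair was not tested. The H2A and H2B genes hta1 and htb1 fell by 0.92 and 0.93 (edgeR adjusted p = 0.00874 and 0.00332). With all 6 ago1D libraries added, none of the 10 histone genes passed, and leaving out the pair of a strain left 2 or 3.

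In the list for G1 arrest and the cell cycle, 3 of 48 genes tested fell (6.25%) and none rose, where 2.99% of all genes fell. The median log2 change was -0.31, and 36 were negative. Among the 3 were the replication factor A gene ssb1, with 50.2, 29.4 and 36.7 normalised CPM at 4 h in wt, clr4D and dcr1D, against 98.1, 84.9 and 116 at 2 h (log2 change -1.38, SE 0.29, edgeR adjusted p = 0.00515), and cfh4, a regulator of chitin synthase, with a log2 change of -1.29 (SE 0.26, edgeR adjusted p = 0.00312). Neither ssb1 nor cfh4 passed without the dcr1D pair or with the ago1D libraries added, and ssb1 was also lost without the clr4D pair. Of 33 genes of TOR and starvation signalling tested, 2 fell (6.06%) and none rose, where 2.99% of all genes fell. pka1, the catalytic subunit of the cAMP-dependent kinase that holds back mating, had 61.4, 123 and 69.4 at 4 h, against 286, 262 and 199.5 at 2 h (log2 change -1.56, SE 0.26, edgeR adjusted p = 0.000636). The other was atf1, which is also a core stress gene. cgs1, which encodes the regulatory subunit that restrains Pka1, had a log2 change of -0.89 and did not pass (SE 0.28, edgeR adjusted p = 0.0692).

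The mating pathway moved the other way. Of 20 genes of the mating and Ste11 list tested, 5 rose and none fell, where 1.39% of all genes rose; the median log2 change was 0.49. ste11, the master regulator of mating, had 195, 259 and 394 normalised CPM at 4 h in wt, clr4D and dcr1D, against 77.6, 65.6 and 189 at 2 h (log2 change 1.37, SE 0.32, edgeR adjusted p = 0.0138). The lowest 4 h library stood just above the highest 2 h library, and each strain had more at 4 h. mei2, the RNA-binding protein that starts meiosis, had 751, 770.2 and 1150.5 at 4 h, against 176, 235 and 424 at 2 h (log2 change 1.71, SE 0.28, edgeR adjusted p = 0.000479).

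Signalling parts of the pheromone pathway rose with them. spk1, the MAP kinase that carries the pheromone signal, had 198, 316 and 516 normalised CPM at 4 h in wt, clr4D and dcr1D, against 40.9, 88.8 and 140.0 at 2 h (log2 change 1.96, SE 0.30, edgeR adjusted p = 0.000247). ste6, the exchange factor that activates Ras1, had 10, 34 and 65 counts at 4 h, against 2, 4 and 6 at 2 h (log2 change 2.45, SE 0.42, edgeR adjusted p = 0.000765). rgs1, which damps the G protein of the pheromone receptor, had 44.7, 142 and 216 normalised CPM at 4 h, against 12.3, 15.4 and 66.5 at 2 h. The rgs1 level of dcr1D at 2 h lay above that of wt at 4 h, so the groups overlapped, but every strain was higher at 4 h (log2 change 2.08, SE 0.51, edgeR adjusted p = 0.0173). Without the strain term 1 of the 20 genes passed, and without the wt, clr4D or dcr1D pair 4, 3 or 3. ste11 was lost without the wt or clr4D pair and ste6 without the dcr1D pair. rgs1 was not among the 3 left without the clr4D pair, nor among the 3 left without the dcr1D pair.

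shk2, a PAK-like kinase, and mam4, the enzyme that methylates M-factor, were among the 10 largest rises. shk2 had 5, 41 and 81 counts at 4 h in wt, clr4D and dcr1D, against 1, 4 and 10 at 2 h (log2 change 2.40, SE 0.57, edgeR adjusted p = 0.0145). mam4 had 9, 22 and 36 counts at 4 h, against 4, 1 and 3 at 2 h (log2 change 2.33, SE 0.50, edgeR adjusted p = 0.0062). shk2 did not pass without any of the 3 pairs, and mam4 not without the clr4D or the dcr1D pair. Of 17 genes for meiosis and sporulation tested, none passed by edgeR (1 at an unadjusted p below 0.05; by DESeq2, none); the list has 33 genes, and the other 16 had too few counts to be tested. The named member rec25, a meiotic recombination gene, had 4, 5 and 13 counts at 4 h, against 2, 0 and 0 at 2 h (log2 change 2.63, SE 0.89, edgeR adjusted p = 0.105).

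P cells make P-factor and carry the M-factor receptor Map3; M cells make M-factor from the mfm genes and carry the P-factor receptor Mam2. The P-cell list had 2 members in the files. map3 had 15, 19 and 87 counts at 4 h in wt, clr4D and dcr1D, against 1, 0 and 11 at 2 h (log2 change 2.62, SE 0.72, edgeR adjusted p = 0.0383), and passed in 7 of the 14 settings, in none of those that left out a pair. map2, a P-factor gene, had 6, 17 and 71 counts at 4 h, against 1, 2 and 8 at 2 h, and did not pass (log2 change 2.30, SE 0.85, edgeR adjusted p = 0.145). The 2 genes together had a summed level of 58.6, 96.3 and 322 normalised CPM at 4 h, against 8.17, 7.72 and 66.5 at 2 h, so each strain was higher at 4 h.

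Although all strains were labelled h+, 4 of the 6 M-cell members tested rose (66.7%), where 1.39% of all genes rose, and none fell. Their summed level was 78.1, 1335 and 1342 normalised CPM at 4 h in wt, clr4D and dcr1D, against 110.3, 255 and 238 at 2 h. In wt the sum stood lower at 4 h, on 28 counts at 4 h and 27 at 2 h, and 1 member was at 0 at each time. In the libraries labelled clr4D and dcr1D all 6 members were detected at both times and all 6 were higher at 4 h. The median log2 ratio of the 6 genes was -1.03 in wt, 2.68 in clr4D and 2.24 in dcr1D. Without the wt pair 4 of the 6 passed, without the clr4D or dcr1D pair 1, with all 6 ago1D libraries 1, by DESeq2 2 and without the strain term 0. The rise of this list was thus read in the labelled deletion strains, and the part of their unsettled genotype in it was not tested.

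By gene, mfm3, an M-factor precursor, had 1, 110 and 179 counts at 4 h in wt, clr4D and dcr1D, against 4, 5 and 5 at 2 h (log2 change 3.59, SE 0.79, edgeR adjusted p = 0.0073). mam2 had 0, 63 and 68 counts at 4 h, against 1, 6 and 7 at 2 h (log2 change 2.51, SE 0.55, edgeR adjusted p = 0.0073). In wt both had fewer counts at 4 h, on numbers too small to show a direction. mfm1 had 2, 95 and 144 counts at 4 h, against 1, 7 and 14 at 2 h (log2 change 2.76, SE 0.46, edgeR adjusted p = 0.000737). mfm2 rose by 1.55 (SE 0.40, edgeR adjusted p = 0.0225). The 3 mfm genes encode the same mature pheromone, so that reads of shared sequence may be lost from all of them.

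**Figure D3:**
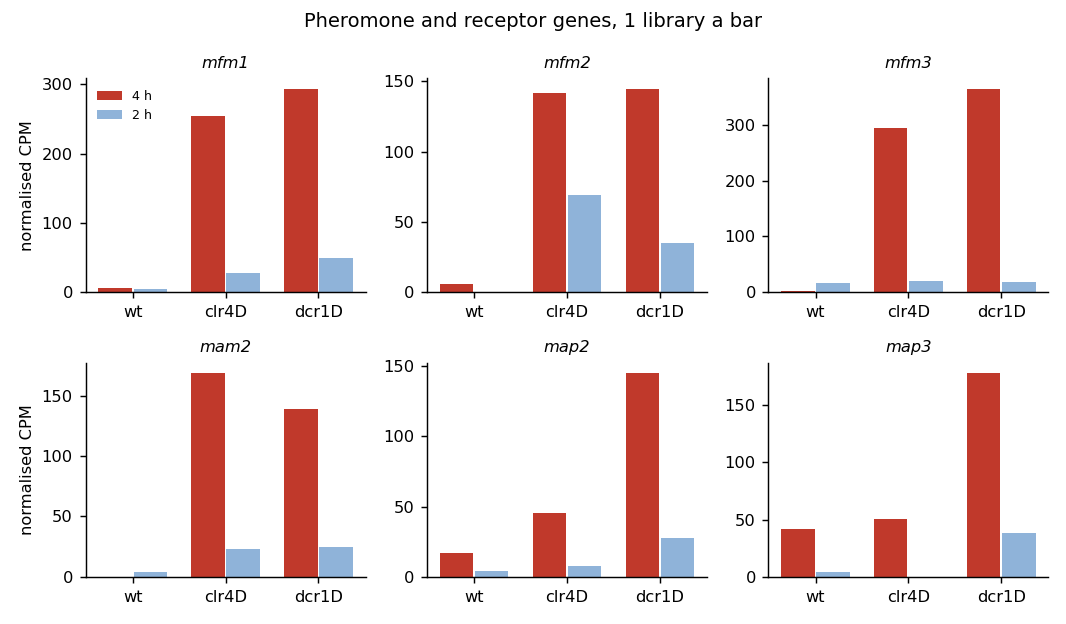
Normalised CPM of 6 pheromone and receptor genes, 1 library a bar, 4 h in red left of 2 h in blue within each strain. The M-cell genes mfm1, mfm2, mfm3 and mam2 are at most 16.3 in wt at both times and high at 4 h in clr4D and dcr1D, and the P-cell genes map2 and map3 are higher at 4 h in every strain.

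Whether the change differed between strains was tested across all genes with a term for clr4D and dcr1D against wt, chosen after the M-cell values were seen. None of 4548 genes passed by edgeR (0.0%), with a smallest adjusted p of 0.528; 183 had an unadjusted p below 0.05. wt has 1 library at each time, and the fit leaves 5 residual degrees of freedom. A p that misses the threshold does not show that the strains changed alike.

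Among 24 tested genes of nitrogen uptake and scavenging, which bring in or break down nitrogen compounds, 2 rose (8.33%) and none fell. Over all genes tested, 1.39% rose. uga1, the transaminase that degrades GABA, had 243, 139 and 65.3 normalised CPM at 4 h in wt, clr4D and dcr1D, against 49, 15.4 and 28 at 2 h (log2 change 2.18, SE 0.35, edgeR adjusted p = 0.000392), and passed in all 14 settings run. isp5, an amino acid permease of starved cells, had 474, 423 and 308 at 4 h, against 204, 189 and 144 at 2 h (log2 change 1.16, SE 0.21, edgeR adjusted p = 0.00162). The means of isp5 were 6.76 at 0 h, 449 at 1 h, 179 at 2 h, 402 at 4 h, 439.7 at 10 h and 436 at 24 h, so its rise at 4 h returned it to the 1 h level after a dip.

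The other 22 members did not pass. isp6, a vacuolar protease needed for autophagy, had 888, 1458 and 2201 normalised CPM at 4 h in wt, clr4D and dcr1D, against 2313, 2512 and 2468 at 2 h (log2 change -0.77, SE 0.28, edgeR adjusted p = 0.145). All 3 libraries at 4 h were below those at 2 h, with wt the lowest. Of 23 autophagy genes tested, 1 fell (4.35%) and none rose, where 2.99% of all genes fell. The median log2 change was -0.48, with 20 negative. The gene that fell was atg20, a sorting nexin, with 80.9, 82.9 and 57.1 at 4 h, against 147 in each strain at 2 h (log2 change -1.01, SE 0.25, edgeR adjusted p = 0.0204). It passed in 8 of the 14 settings, and in no fit that left out a pair.

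Other genes described here were chosen after their values were seen. SPCC584.13 and SPCC74.04, both annotated as GABA and polyamine transporters, rose by 2.22 and 1.84 on the log2 scale (edgeR adjusted p = 0.00101 and 0.0094). The urea transporter gene SPAC869.03c had 583, 305 and 239 normalised CPM at 4 h in wt, clr4D and dcr1D, against 200.2, 73.3 and 129.5 at 2 h (log2 change 1.45, SE 0.31, edgeR adjusted p = 0.00517). The purine-breakdown genes dal2, an allantoicase, and xan1, a xanthine dioxygenase, fell by 1.38 and 1.47 (edgeR adjusted p = 0.00248 and 0.00283). xan1 averaged 10.1 at 0 h, 1101 at 1 h, 425 at 2 h and 157 at 4 h.

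The remaining largest rises were of other kinds. SPAC27F1.05c, annotated as an aminotransferase, had 262, 203 and 129 normalised CPM at 4 h in wt, clr4D and dcr1D, against 20.4, 23.2 and 38.5 at 2 h (log2 change 2.76, SE 0.32, edgeR adjusted p = 1.94e-05). mfs3, of the spermidine transporter family, averaged 194 ± 95.4 at 4 h and 36.5 ± 4.9 at 2 h (SD, n = 3 each; log2 change 2.33, edgeR adjusted p = 0.00052). Both passed in all 14 settings, and for both wt was the highest library at 4 h. The uncharacterised gene SPAC11D3.03c had 30, 17 and 18 counts at 4 h, against 5, 2 and 2 at 2 h (log2 change 2.24, edgeR adjusted p = 0.0239). It passed in 7 of the 14 settings, but not by DESeq2, with thinned depth or in any fit that left out a pair.

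Of the 10 largest rises 2 were non-coding. omt3, a long non-coding RNA that forms foci in meiosis, had 109, 118 and 173 normalised CPM at 4 h in wt, clr4D and dcr1D, against 8.17, 19.3 and 28 at 2 h (log2 change 2.82, SE 0.41, edgeR adjusted p = 0.000173). Its groups were apart, and it passed in all 14 settings run. prl58 had 8, 7 and 28 counts at 4 h, against 0, 1 and 4 at 2 h (log2 change 2.38, edgeR adjusted p = 0.0206). It passed in 6 of the 11 settings that tested it, but not by DESeq2 or in any fit that left out a pair. Of 205 non-coding RNA genes tested, 4 rose (1.95%) and 2 fell (0.976%), where 1.39% of all genes rose and 2.99% fell; SPNCRNA.504 fell by 1.48 (SE 0.33, edgeR adjusted p = 0.00739).

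**Figure D4:**
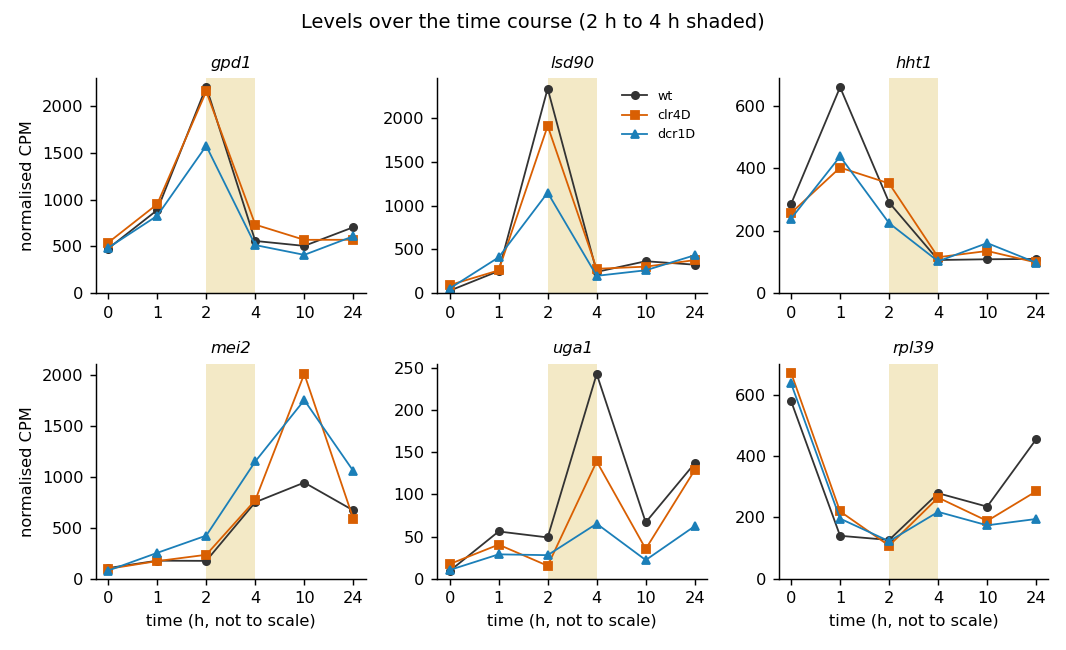
Normalised CPM of 6 genes at the 6 times in wt (black), clr4D (orange) and dcr1D (blue), with the step from 2 h to 4 h shaded and times evenly spaced. gpd1 and lsd90 are highest at 2 h in every strain, hht1 declines after 1 h, mei2 climbs to 10 h, uga1 is highest at 4 h, and rpl39 is lowest at 2 h and higher again at 4 h.

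Of 24 genes for glycolysis and glucose uptake tested, 2 rose (8.33%) and none fell, where 1.39% of all genes rose. Both were hexose transporters. DESeq2 called 2 higher and 3 lower, and total-count scaling 1 higher and 3 lower. The fits that left out a pair called 0 or 1 higher and none lower. ght5, the high-affinity glucose transporter, had 162, 238 and 196 normalised CPM at 4 h in wt, clr4D and dcr1D, against 49, 100.3 and 56 at 2 h (log2 change 1.56, SE 0.32, edgeR adjusted p = 0.00448). ght8 averaged 335 ± 14 at 4 h and 164 ± 10 at 2 h (SD, n = 3 each; log2 change 1.03, edgeR adjusted p = 0.00634). The median of the list was negative at -0.29, so the transporters went against most of the list. Of 14 genes of the iron and phosphate regulons tested, 1 rose (7.14%), where 1.39% of all genes rose. It was pho84, a phosphate transporter, with 1848, 1091 and 709.9 at 4 h, against 498, 336 and 354 at 2 h (log2 change 1.52, SE 0.31, edgeR adjusted p = 0.00431). The pho84 call was lost without the wt or the clr4D pair and without the strain term.

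Of 46 respiration and TCA cycle genes tested, with a median of -0.18, none rose and 4 fell (8.7%), where 2.99% of all genes fell. They were qcr6 of the cytochrome bc1 complex (-1.10, edgeR adjusted p = 0.00531), the malate dehydrogenase gene mdh1 (-1.04, edgeR adjusted p = 0.016), mae2 (-0.97, edgeR adjusted p = 0.0306) and cox5 of cytochrome oxidase (-0.87, edgeR adjusted p = 0.0418). Leaving out the pair of a strain left 0 or 1 of the 4. None of 54 amino acid biosynthesis genes passed by edgeR (5 at an unadjusted p below 0.05; by DESeq2, 0 higher and 1 lower), with a median of -0.08. None of 30 proteasome genes passed by edgeR (10 at an unadjusted p below 0.05; by DESeq2, none), with a median of -0.36. None of 25 translation factor genes passed by edgeR (5 at an unadjusted p below 0.05; by DESeq2, 1 higher and 0 lower), with a median of 0.12.

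Of 133 cytosolic ribosomal protein genes tested, 9 rose (6.77%) and none fell, where 1.39% of all genes rose. Of the 133, 131 had a positive log2 change, with a median of 0.67. rps2401, a protein of the small subunit, had 220.5, 147 and 179.5 normalised CPM at 4 h in wt, clr4D and dcr1D, against 57.2, 57.9 and 98 at 2 h (log2 change 1.33, SE 0.30, edgeR adjusted p = 0.0106). rpl39 of the large subunit had 279, 265 and 218 at 4 h, against 127, 108 and 123 at 2 h (log2 change 1.08, SE 0.26, edgeR adjusted p = 0.0173). The means of rpl39 were 629.8 at 0 h, 185 at 1 h, 119 at 2 h and 254 at 4 h, so 4 h stood above 2 h and below 0 h. Many ribosomal protein genes have near-identical copies, so that the split between copies is uncertain.

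The median log2 ratio of these 133 genes was 1.06 in wt, 0.55 in clr4D and 0.45 in dcr1D, each above its median over all genes, which lay between 0.0039 and 0.033. The number that passed varied with the libraries fitted: 0, 0 and 1 when the wt, clr4D or dcr1D pair was left out, 65 with the 6 compared libraries alone, and 0 with a median of -0.11 when all 6 ago1D libraries were added. Of 59 ribosome biogenesis genes tested, none fell and 3 rose (5.08%), where 1.39% of all genes rose. The 3 were dbp2, an RNA helicase (1.54, SE 0.32, edgeR adjusted p = 0.00448), rlp7 (1.19, SE 0.28, edgeR adjusted p = 0.0129) and nog1 (1.33, SE 0.32, edgeR adjusted p = 0.0171). None of these 3 passed when the 2 h and 4 h pair of any strain was left out.

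**Figure D5:**
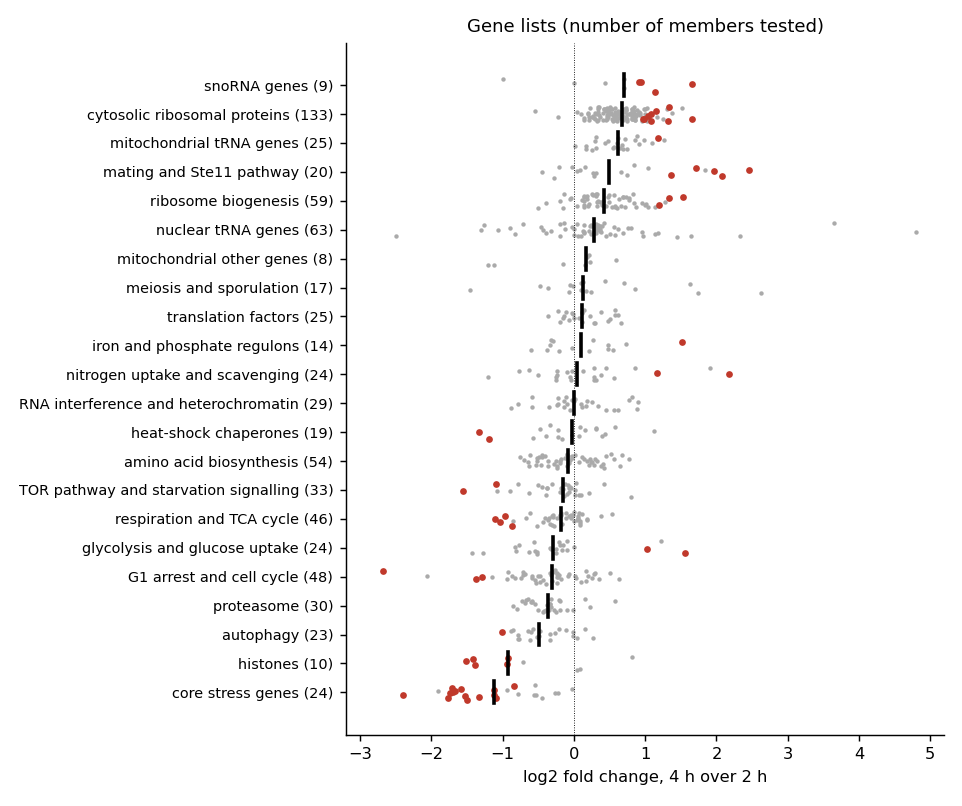
Log2 fold change at 4 h over 2 h of every tested member of each gene list drawn, sorted by the list's median (black bar). Members that passed are in red, with the number tested in brackets. The lists of P-cell markers (median 2.46), M-cell markers (2.08) and non-coding RNA genes are not drawn. Of the lists drawn, core stress genes (median -1.12) and histones (-0.92) lie lowest. The highest drawn are snoRNA genes (0.70), ribosomal protein genes (0.67) and mitochondrial tRNA genes (0.62).

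Stable structural RNAs made up much of the counts. Mitochondrial tRNA genes took 34.9% ± 2.81 of gene counts at 4 h and 27.3% ± 3.05 at 2 h, and protein-coding genes 40.7% ± 2.99 at 4 h and 49.3% ± 5.11 at 2 h (SD, n = 3 each). Nuclear tRNA genes took 18.3% ± 1.51 at 4 h and 16.2% ± 2.76 at 2 h. All 3 strains moved the same way in each class, and 3 pairs cannot give an exact sign-flip p below 0.25, the value found (two-sided). The difference for mitochondrial tRNA was 7.57 percentage points, and 3.02 with the ago1D pair added. By gene, all 25 mitochondrial tRNA genes had a positive log2 change, with a median of 0.62, but 1 passed (4%), where 1.39% of all genes rose.

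That gene was SPMITTRNAALA.01, with 3226, 3378 and 4276 normalised CPM at 4 h in wt, clr4D and dcr1D, against 1189, 1463 and 2216 at 2 h (log2 change 1.18, SE 0.34, edgeR adjusted p = 0.0457). It passed in 9 of the 14 settings, and in no fit that left out a pair. None of the 63 nuclear tRNA genes tested passed by edgeR (1 at an unadjusted p below 0.05; by DESeq2, none), and their median was 0.28. None of 8 other mitochondrial genes passed by edgeR (2 at an unadjusted p below 0.05; by DESeq2, 0 higher and 2 lower). sup9, a serine tRNA gene, had 2, 5 and 2 counts at 4 h and none in the 3 libraries at 2 h, too few for a fold change.

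snoRNAs guide the modification and cutting of ribosomal RNA. Of 9 snoRNA genes tested, 4 rose (44.4%) and none fell, where 1.39% of all genes rose. The median of the 9 was 0.70. The snoRNA share of gene counts was 0.308% ± 0.0181 at 4 h and 0.179% ± 0.0102 at 2 h (SD, n = 3 each). snR30, the U17 RNA needed to make 18S ribosomal RNA, had 1560.1, 1597 and 1589 normalised CPM at 4 h in wt, clr4D and dcr1D, against 625, 837 and 693 at 2 h (log2 change 1.14, SE 0.25, edgeR adjusted p = 0.00792). The mean of snR30 was 826 at 0 h, 471 at 1 h, 719 at 2 h, 1582 at 4 h, 2388 at 10 h and 8163 at 24 h. SPNCRNA.901 and snR95 rose by 1.66 and 0.94 (edgeR adjusted p = 0.0365 and 0.0393), and none of the 4 passed when the pair of any strain was left out.

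Genes of RNA interference and heterochromatin did not pass at this step. None of 29 tested passed by edgeR (3 at an unadjusted p below 0.05; by DESeq2, none). ago1 came closest to the threshold, with 39.1, 56.2 and 46.9 normalised CPM at 4 h in wt, clr4D and dcr1D, against 69.5, 88.8 and 87.5 at 2 h (log2 change -0.79, SE 0.25, edgeR adjusted p = 0.0698). Its groups did not overlap, as for 11.9% of all genes in that direction. clr4 and dcr1 had log2 changes of -0.09 and 0.10 (edgeR adjusted p = 0.927 and 0.933).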

How the data were processed

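The deposited values are raw counts per gene, 1 file per library with 6878 features. Per the submitters' processing notes the tools were cutadapt, Bowtie2 2.1.0 and HTSeq 0.6.1, and the genome build was ASM294v2. HTSeq's summary lines entered no library size or test; reads with several placements get a low mapping quality and were set aside, so repeated sequence is poorly covered. Counting kept the strands apart: 457 of 469 features lying within a gene on the other strand had counts, against 1 of 28 on the same strand. Names and classes came from the ASM294v3 annotation, with 97.72% of features matched. Its coordinates, of another build than the counts, were used only for the strand check, with a margin of 50 bases.

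The main test was edgeR 4.0.16 in R 4.3.3 (quasi-likelihood F-test, TMM scaling, low-count filter with minimum count 10), fitted to all 18 libraries of wt, clr4D and dcr1D with terms for time and strain, for the contrast of 4 h minus 2 h. It left 10 residual degrees of freedom and a biological coefficient of variation of 0.21. Libraries of a strain form a pair by design, so strain was a block in the main fit. Log2 ratios within a strain used a pseudocount of 1 normalised CPM. Class shares were compared with exact sign-flip tests. The spread behind every p-value is that between these libraries, and may be technical. DESeq2 1.42.0 was an alternative, with others for scaling, filter, libraries and block.

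Genes were named by rule: among those that passed with a log2 mean above 3 and the same sign in all 3 strains, the 10 that rose most and the 10 that fell most, then up to 4 members of smallest p per gene list, and ago1, clr4 and dcr1. Other genes were chosen after their values were seen, and 1 gene named by the rule is not reported here. The comparison and the lists were chosen with earlier results of these data known.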

Additional observations from a re-analysis of the deposited data

Results flagged for a closer look

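For 2 M-cell genes the log2 ratio of 4 h over 2 h had the opposite sign in wt to that in both labelled deletion strains. mfm3 had a log2 ratio of -2.19 in wt, on 1 count at 4 h and 4 at 2 h, against 110 and 179 counts at 4 h and 5 and 5 at 2 h in the libraries labelled clr4D and dcr1D. mam2 had a log2 ratio of -2.35 in wt, on 0 counts at 4 h and 1 at 2 h, against 63 and 68 counts at 4 h and 6 and 7 at 2 h. In the edgeR fit with a term for the difference between strains, neither passed after adjustment over all genes (unadjusted p = 0.00458 and 0.0443; adjusted p = 1 for both). The wt values rest on at most 4 counts a library.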

How the results depend on the processing

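Of 14 settings, 3 were chosen after seeing the data (without 10 h and 24 h, without 0 h, thinned depth). The count of 199 genes (63 higher, 136 lower) was within 1.5 times with total-count scaling, scaling without structural RNA, no filter (206), minimum count 30 (233), DESeq2 (225), without 0 h (185) and thinned 4 h libraries (173). It was 516 (241 higher, 275 lower) with the 6 compared libraries alone, 523 (245 and 278) without 10 h and 24 h, and 24 (15 and 9) with all 6 ago1D libraries added, of which 23 were among the 199. Without the strain block that pairs the libraries it was 114 (24 and 90), all among the 199. Leaving out the 2 h and 4 h pair of a strain gave 61 to 82 genes (14 to 20 higher, 44 to 62 lower). The cause was not tested, but such fits have 2 libraries a side. Among single named genes, the sign turned for SPBTRNALEU.05 (-1.23), SPMIT.10 (-0.35) and mas5 (-0.23) with ago1D, clr4 (0.030) with thinned depth and dcr1 (-0.026) with total-count scaling, none of which had passed. Over the 112 named genes and these settings, 205 values lost the threshold and 85 gained it, with the sign kept. Class shares kept their direction in every setting run. Every 4 h library was deeper than every 2 h library, and the low-count gene SPNCRNA.1591 rests on few reads at either time.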
